A study of Rattus norvegicus with 6 samples.

Results

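Secreted Wnt antagonists are proteins that cells release to hold Wnt signalling in check, and 8 of their genes were followed here among the 34045 genes of the deposited table. The 8 genes were chosen by name: the secreted frizzled-related protein genes Sfrp1, Sfrp2, Sfrp4 and Frzb, the Dickkopf genes Dkk1, Dkk2 and Dkk3, and Wif1. All 8 had a row of their own. RNA was sequenced from calvarial bone defects, holes in the roof of the skull, of wild-type male Sprague-Dawley rats at week 4 after surgery. The defects had received the CGG-Cit hydrogel (3 libraries) or the CGG hydrogel (3 libraries). The labels do not spell out either gel's name, and the series title places them among biohydrogels coordinated with a TCA cycle metabolite. Neither the rats' age nor the number of rats behind a library is stated in the labels, so the p-values reflect how far these libraries varied and that variation may be technical. The question was how the defect tissue responded to CGG-Cit, set against CGG.

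Wnt ligands bind Frizzled receptors together with the co-receptors Lrp5 or Lrp6, which lets beta-catenin build up and switch on genes with the TCF/LEF factors. Frizzled-related proteins carry a domain like the ligand-binding part of Frizzled and can bind Wnt proteins outside the cell, and Wif1 binds Wnt proteins through a domain of its own. Dkk1 and Dkk2 act on Lrp5 and Lrp6 instead, while Dkk3 is the divergent Dickkopf protein. In bone, Wnt signalling drives osteoblasts, the cells that lay down matrix.

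Levels are in FPKM, which divides a gene's fragments by its length and by the size of the library, so genes can be set side by side. The whole reads recovered from the table summed to 14744207 to 16127352 in the CGG-Cit libraries and to 15054925 to 16224920 in the CGG libraries. Log2 changes are differences of log2(FPKM + 1), CGG-Cit minus CGG, and the added 1 makes changes of weakly expressed genes look smaller. Testing was done with limma over 15965 genes whose mean reached 0.5 FPKM, and a gene passed at a Benjamini-Hochberg adjusted p under 0.05. Positions are those of the deposited table, whose build could not be settled, and they cannot be set beside the GRCr8 positions of the promoters. Bone cell markers were present in both groups: the summed FPKM of 10 osteoblast marker genes was 5058 to 9478 in CGG-Cit libraries and 10440 to 14960 in CGG libraries. Skeletal muscle markers were far apart, at a summed 32.5 to 301.5 FPKM in CGG-Cit libraries against 6036 to 6842 FPKM in CGG libraries.

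In the CGG-Cit defects 4 of the 8 antagonist genes rose: Sfrp2, Sfrp4, Sfrp1 and Dkk3. Wif1 lay lower in every CGG-Cit library than in any CGG library without passing the test, Frzb and Dkk2 were low in both groups and did not pass, and Dkk1 was near 0 and was not tested. Of the 7 tested genes 4 passed as higher and 0 as lower with limma, where 7.75% of all genes tested passed as higher and 9.78% as lower. For the lower direction, 1 gene (Wif1) had an unadjusted p under 0.05, and limma's voom on the recovered reads called 0. All CGG-Cit libraries lay above all CGG libraries in 4 of the 7 tested genes and below them in 1, beside 19.6% and 22.1% of all genes tested, 41.7% together. The median log2 change of the 7 tested genes was 0.76, beside 0.00232 over all genes tested. With a library left out the count called higher was 1 to 3 and the count called lower 0 to 1. In the same libraries the summed levels of fibroblast and meningeal markers were higher and that of osteoblast markers lower, with values given under the marker lists. Skeletal muscle markers were far lower, as given above. Neutrophil markers were lower too, at a summed 2301 to 5959 FPKM in CGG-Cit libraries against 14390 to 16350 FPKM in CGG libraries. In whole tissue fewer cells of a type and less RNA per cell cannot be told apart, and the part of these markers in the antagonists' differences was not tested.

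**Figure D1:**
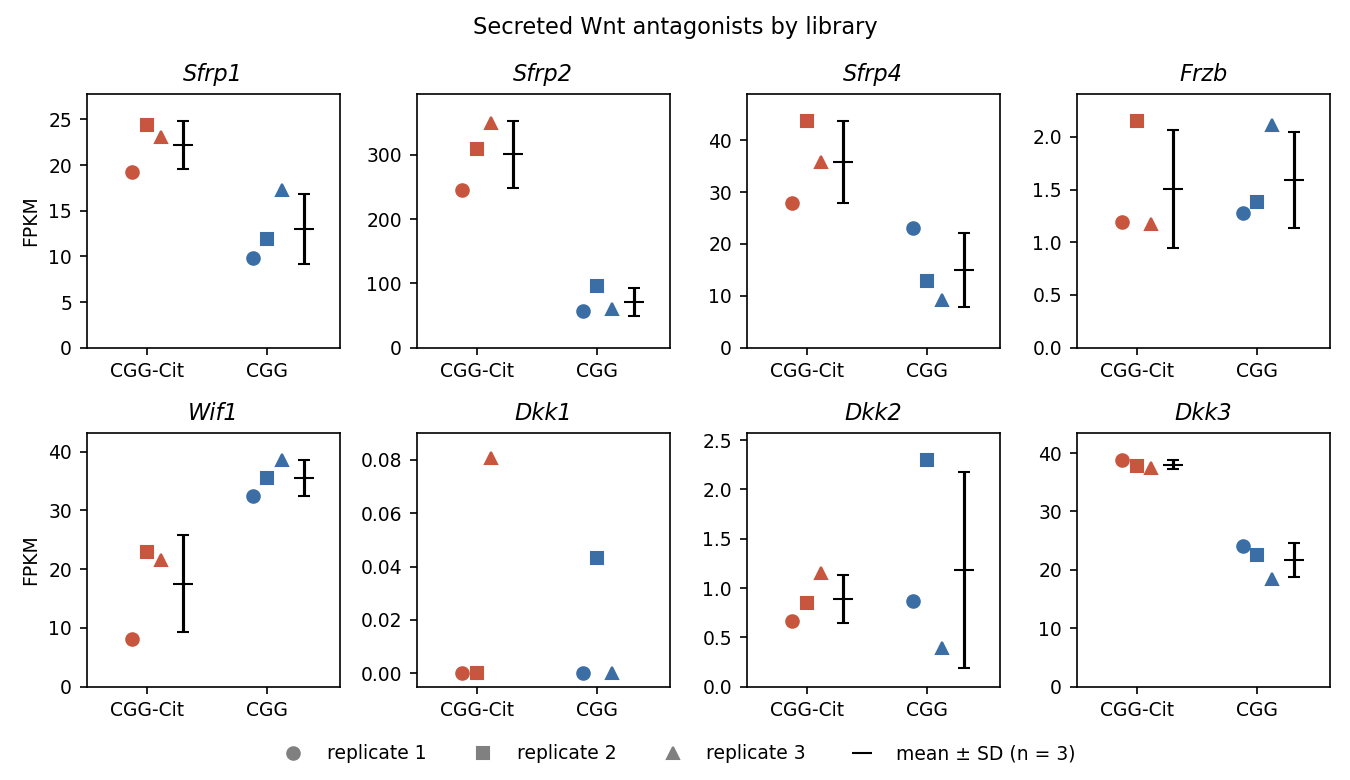
FPKM (y axis, from 0, a scale for each gene) of the 8 secreted Wnt antagonist genes in 3 CGG-Cit and 3 CGG libraries, with each library as a point and the mean ± SD beside each group except for Dkk1. Sfrp1, Sfrp2, Sfrp4 and Dkk3 stand higher in all CGG-Cit libraries, Wif1 stands lower in all of them, and Frzb and Dkk2 overlap.

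The promoter sequences of Sfrp2 and Wif1, the genes with the largest differences in opposite directions, and of Dkk1, which was barely detected here, are shown as the 250 bases before the annotated start, 5′ to 3′ on the gene's strand, from RefSeq (build GRCr8). RefSeq entries were matched for 4 of the 8 genes by symbol, these and Frzb. Capitals mark matches to the motifs searched.
Sfrp2 (chr2:171387286-171387535, plus strand): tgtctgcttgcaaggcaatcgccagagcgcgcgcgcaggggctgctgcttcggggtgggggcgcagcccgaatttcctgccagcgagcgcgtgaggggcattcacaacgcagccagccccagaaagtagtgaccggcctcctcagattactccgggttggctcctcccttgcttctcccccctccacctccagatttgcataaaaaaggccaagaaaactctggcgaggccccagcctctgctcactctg
Wif1 (chr7:58433329-58433578, plus strand): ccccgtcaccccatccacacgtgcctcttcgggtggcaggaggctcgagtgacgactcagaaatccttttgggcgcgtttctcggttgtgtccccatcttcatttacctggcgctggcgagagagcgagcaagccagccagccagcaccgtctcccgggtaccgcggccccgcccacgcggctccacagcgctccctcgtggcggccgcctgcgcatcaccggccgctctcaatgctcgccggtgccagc
Dkk1 (chr1:237798651-237798900, minus strand): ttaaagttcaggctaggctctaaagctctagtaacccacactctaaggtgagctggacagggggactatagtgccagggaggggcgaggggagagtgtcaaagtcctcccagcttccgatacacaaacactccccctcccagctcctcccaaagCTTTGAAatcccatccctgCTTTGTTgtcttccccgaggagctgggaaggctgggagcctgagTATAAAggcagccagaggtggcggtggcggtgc
The motifs were the TCF/LEF core of canonical Wnt targets (CTTTG followed by AA, AT, TA or TT), the RUNX core TGTGGT and the AP-1 site TGANTCA, all on both strands, and the TATA box TATAAA on the sense strand. No matches overlapped in these windows. Dkk1 held a TCF/LEF core ending in AA, beginning 96 bases before the start, another ending in TT, beginning 77 bases before it, and a TATA box beginning 33 bases before it. Of 21842 promoters of protein-coding genes of the same length, 13.7% held a TCF/LEF core, 13.4% a RUNX core, 5.69% an AP-1 site and 7.87% a TATA box. Sfrp2, Wif1 and Frzb held no match to these letters in this window. The windows of Wif1 and Sfrp2 were rich in G and C, at 68% and 62.4% with 27 and 15 CpG dinucleotides, beside a median of 54% and 8 over these promoters, while Frzb had 43.6% and 3.

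Sfrp2 (ENSRNOG00000009465; chromosome 2, 182723854 to 182731764, plus strand), a frizzled-related protein of stromal and fibroblastic cells, was the most abundant of the 8 genes in every library and showed the largest rise. It had 245.6, 308.2 and 348.9 FPKM in CGG-Cit 1, 2 and 3, against 56.6, 96.0 and 60.4 FPKM in CGG 1, 2 and 3. Every CGG-Cit library was far above every CGG library. The means were 300.9 ± 52.0 FPKM in CGG-Cit and 71.0 ± 21.7 FPKM in CGG (SD, n = 3 each), 4.24-fold apart, and the log2 change was 2.09 ± 0.229 (SE; limma adjusted p = 0.00591). In CGG-Cit its mean exceeded that of 98.6% of the genes tested, against 93.5% in CGG. Between 8792 and 13712 reads per CGG-Cit library and 2115 to 3515 per CGG library lay behind these values, so counting error is small beside the spread between libraries. Sfrp2 passed in all 17 alternative fits, with log2 changes of 1.95 to 2.33 and adjusted p of 0.00212 to 0.0375.

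Sfrp4 (ENSRNOG00000054957; chromosome 17, 47297489 to 47394328, minus strand) encodes a frizzled-related protein known for its part in the thickness of cortical bone. It had 27.9, 43.8 and 35.8 FPKM in CGG-Cit libraries, against 23.0, 12.9 and 9.14 FPKM in CGG libraries. The groups did not overlap, but CGG 1 came close to CGG-Cit 1. Sfrp4 averaged 35.8 ± 7.91 FPKM in CGG-Cit and 15.0 ± 7.17 FPKM in CGG (SD, n = 3 each), and its log2 change was 1.27 ± 0.323 (SE; limma adjusted p = 0.0411). The call was lost when CGG-Cit 1 (adjusted p = 0.0681), CGG-Cit 2 (0.132), CGG-Cit 3 (0.076), CGG 2 (0.108) or CGG 3 (0.107) was left out, and without the filter on low values (0.0687). The table lists Nme8 overlapping Sfrp4 on the other strand, at no more than 0.207 FPKM, and the strand setting is not given in the sources used here.

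Sfrp1 (ENSRNOG00000017783; chromosome 16, 73372007 to 73410777, minus strand) encodes a Wnt-binding protein described as a brake on bone formation in mice. It had 19.3, 24.4 and 23.0 FPKM in CGG-Cit libraries, against 9.78, 11.9 and 17.2 FPKM in CGG libraries. The groups stood apart by the narrow gap between CGG-Cit 1 and CGG 3. Its means were 22.2 ± 2.64 FPKM in CGG-Cit and 13.0 ± 3.84 FPKM in CGG (SD, n = 3 each), and its log2 change was 0.76 ± 0.203 (SE; limma adjusted p = 0.0476), just inside the threshold. Leaving out CGG-Cit 1 (adjusted p = 0.0753), CGG-Cit 2 (0.146), CGG-Cit 3 (0.0921), CGG 1 (0.107) or CGG 2 (0.12) ended the call, as did testing without the filter on low values (0.075).

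Frzb (ENSRNOG00000007765; chromosome 3, 67635607 to 67668772, minus strand) encodes the frizzled-related protein first known from cartilage. It had 1.2, 2.15 and 1.18 FPKM in CGG-Cit libraries, against 1.28, 1.38 and 2.11 FPKM in CGG libraries. A single library of each group stood above the others, and the groups overlapped. The log2 change of -0.06 had a 95% interval of -0.573 to 0.462 (limma adjusted p = 0.878). Between 50 and 91 reads per library lay behind these values.

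Dkk3 (ENSRNOG00000016343; chromosome 1, 176940693 to 176983045, minus strand) had the smallest SD relative to its mean, in both groups, of the 4 genes that rose. It had 38.9, 37.7 and 37.4 FPKM in CGG-Cit libraries, against 24.1, 22.5 and 18.4 FPKM in CGG libraries. The CGG-Cit libraries were nearly level with each other and all lay above the CGG libraries. Dkk3 averaged 38.0 ± 0.75 FPKM in CGG-Cit and 21.7 ± 2.95 FPKM in CGG (SD, n = 3 each), 1.75-fold apart, with a log2 change of 0.79 ± 0.114 (SE; limma adjusted p = 0.0125). It passed in 16 of 17 alternative fits, and without CGG-Cit 2 its adjusted p was 0.0529.

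Dkk2 (ENSRNOG00000011360; chromosome 2, 237148941 to 237241350, plus strand), which encodes an Lrp-binding Dickkopf protein, had 0.667, 0.844 and 1.15 FPKM in CGG-Cit libraries, against 0.870, 2.30 and 0.391 FPKM in CGG libraries. CGG 2 held the highest value and CGG 3 the lowest, so the CGG libraries spanned the CGG-Cit ones. The log2 change of -0.13 (95% interval -0.907 to 0.654; limma adjusted p = 0.812) rested on 21 to 127 reads per library. Dkk1 (ENSRNOG00000048688; chromosome 1, 248895738 to 248898607, minus strand), the Dickkopf protein usually discussed as an inhibitor of osteoblasts, was represented by 0, 0 and 2 reads in CGG-Cit 1, 2 and 3 and by 0, 1 and 0 reads in CGG 1, 2 and 3. A limit of 3 reads per library corresponds to 0.121 to 0.133 FPKM for this gene, so both groups were at or under that limit and no fold change is given. The labels name no molecular identifiers, so this limit covers counting error only.

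Wif1 (ENSRNOG00000004476; chromosome 7, 63094911 to 63165159, plus strand) was lower in CGG-Cit, although the difference did not pass the test. It had 8.08, 23.0 and 21.6 FPKM in CGG-Cit libraries, against 32.5, 35.4 and 38.6 FPKM in CGG libraries. All CGG-Cit values were below all CGG values, and CGG-Cit 1 stood well below the other CGG-Cit libraries. Its means were 17.6 ± 8.22 FPKM in CGG-Cit and 35.5 ± 3.07 FPKM in CGG (SD, n = 3 each), a ratio of 0.494, with a log2 change of -1.10 ± 0.363 (SE; 95% interval -1.96 to -0.233; limma adjusted p = 0.0818). Without CGG-Cit 1 the log2 change was smaller, at -0.65, and passed (adjusted p = 0.0366). It did not pass in the other 16 alternative fits (adjusted p of 0.0646 to 0.204).

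**Figure D2:**
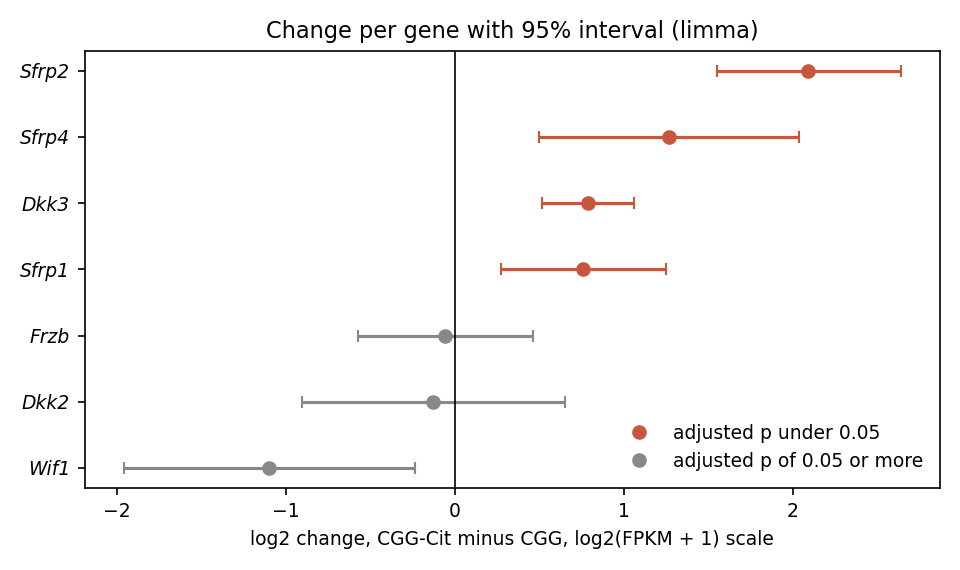
Log2 change of FPKM + 1, CGG-Cit minus CGG (x axis), of the 7 tested antagonist genes, as points with 95% intervals from limma, coloured by whether the adjusted p was under 0.05. The unadjusted intervals of Sfrp2, Sfrp4, Dkk3 and Sfrp1 lie above 0, that of Wif1 lies below 0 without passing after adjustment, and those of Frzb and Dkk2 span 0.

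The order of the levels also differed between the groups. In CGG-Cit the mean FPKM ran, from high to low, Sfrp2, Dkk3, Sfrp4, Sfrp1, Wif1, Frzb, Dkk2 and Dkk1. In CGG it ran Sfrp2, Wif1, Dkk3, Sfrp4, Sfrp1, Frzb, Dkk2 and Dkk1, so Wif1 held rank 5 in CGG-Cit and rank 2 in CGG. Neighbours whose ranges over libraries overlapped were Dkk3 with Sfrp4 and Sfrp1 with Wif1 in CGG-Cit. In CGG they were Dkk3 with Sfrp4, Sfrp4 with Sfrp1, and Frzb with Dkk2. Within a library, Sfrp1 stood above Wif1 in every CGG-Cit library and Dkk3 above Sfrp4 in every CGG library, by little in some. The order of the other overlapping neighbours changed from library to library and is not settled.

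Added together, the 8 genes reached 341.6, 440.0 and 469.2 FPKM in CGG-Cit libraries, against 148.1, 182.6 and 146.3 FPKM in CGG libraries. Sfrp2 alone made up 71.9%, 70.0% and 74.4% of the sum in CGG-Cit libraries, against 38.2%, 52.6% and 41.3% in CGG libraries. Wif1 made up 2.37%, 5.22% and 4.60% of it in CGG-Cit libraries, against 21.9%, 19.4% and 26.4% in CGG libraries. Most of the larger sum in CGG-Cit was therefore Sfrp2. Without Sfrp2 the sums were 96.0, 131.8 and 120.2 FPKM in CGG-Cit libraries, against 91.5, 86.5 and 85.9 FPKM in CGG libraries. Ratios of genes within a library do not depend on how libraries were scaled. The ratio of Sfrp2 to Wif1 was 30.4, 13.4 and 16.2 in CGG-Cit libraries, against 1.74, 2.71 and 1.56 in CGG libraries, a pair chosen after its values were seen and given without a test. Sfrp2 was also higher relative to Dkk3, another gene that rose: their ratio was 6.32, 8.17 and 9.32 in CGG-Cit libraries, against 2.35, 4.26 and 3.29 in CGG libraries. The ratio of Sfrp2 to Sfrp1 did not overlap between the groups either, and that to Sfrp4 did.

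**Figure D3:**
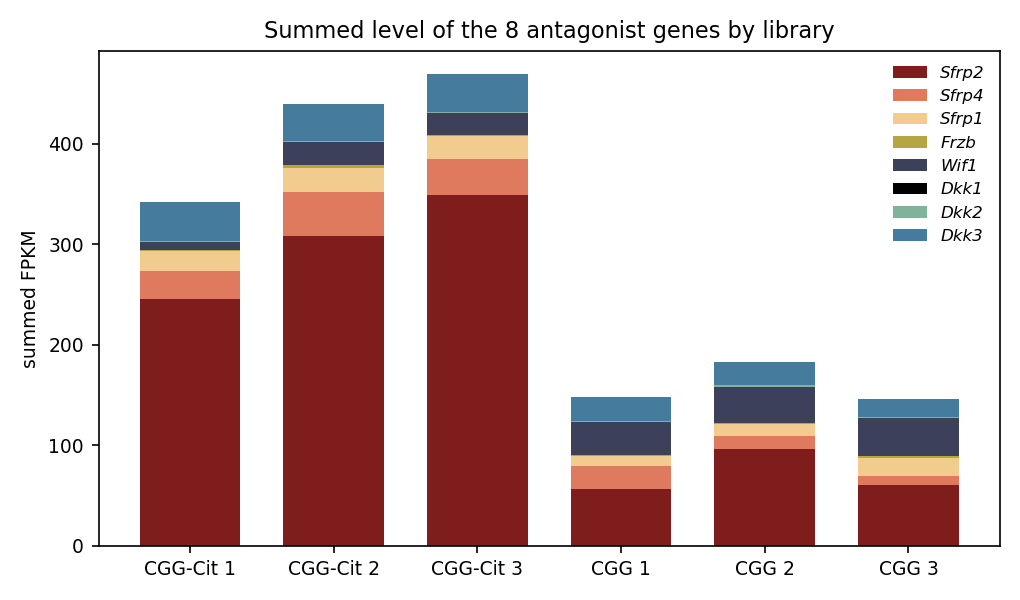
Summed FPKM (y axis, from 0) of the 8 antagonist genes in each library, stacked by gene. The CGG-Cit bars reach 341.6 to 469.2 FPKM and the CGG bars 146.3 to 182.6 FPKM, and Sfrp2 fills most of each CGG-Cit bar.

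The genes with the most similar profiles were looked up for the 3 antagonists of highest mean level, by the smallest root mean square distance between log2(FPKM + 1) values centred on the 6 libraries, among 9061 other named protein-coding genes averaging 5 FPKM or more. The nearest to Wif1 were Ifitm5 (distance 0.103), a membrane protein of osteoblasts, Sp7 (0.107), the osteoblast transcription factor osterix, and Ibsp (0.148), the bone sialoprotein gene. Ifitm5 had 12.6, 28.8 and 29.3 FPKM in CGG-Cit libraries, against 47.4, 43.9 and 52.6 FPKM in CGG libraries, with its lowest value in CGG-Cit 1, as for Wif1. The nearest to Sfrp2 were C4b (0.194), a complement component, Il33 (0.239), an alarmin cytokine, and Rbp4 (0.316), the retinol carrier. C4b is uncertain because of its near-identical copies. The nearest to Dkk3 were Abi3bp (0.0523), an extracellular matrix protein, Tulp3 (0.0569), a protein of primary cilia, and Cacnb3 (0.0616), a calcium channel subunit. These distances rest on 6 libraries in 2 groups, and a gene with a difference of like size between the groups lies near. The choice by distance also favours genes that share a low or high library with the antagonist.

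**Figure D4:**
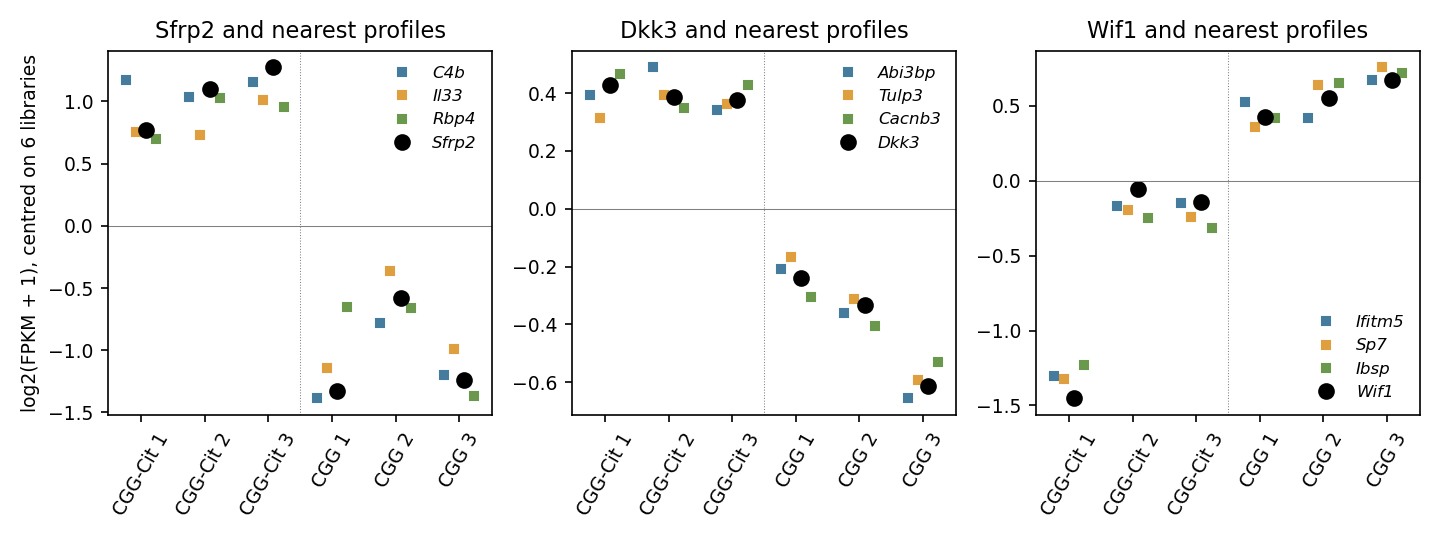
Log2(FPKM + 1) centred on the mean of the 6 libraries (y axis) in each library (x axis), for Sfrp2, Dkk3 and Wif1 (black) and the 3 genes nearest to each (coloured squares, set side by side). Ifitm5, Sp7 and Ibsp share with Wif1 the lowest value in CGG-Cit 1, which their choice by distance to Wif1 over these libraries favours.

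Marker genes of the cell types that could hold these antagonists differed between the groups in some lists and not in others. The counts stand beside 7.75% of all genes tested that passed as higher and 9.78% as lower. Of 12 fibroblast and connective tissue markers 6 rose and 0 fell (voom 7 and 0), with a summed 2026 to 2415 FPKM in CGG-Cit libraries against 1125 to 1895 FPKM in CGG libraries. Dcn, the matrix proteoglycan decorin, averaged 846.1 ± 46.9 FPKM in CGG-Cit and 486.6 ± 139 FPKM in CGG (SD, n = 3 each). The next most abundant of the list, Lum and Postn, did not pass. Lum averaged 741.5 ± 121 FPKM in CGG-Cit and 549.9 ± 144 FPKM in CGG (limma adjusted p = 0.213). Postn went the other way, at 201.5 ± 34.6 FPKM in CGG-Cit and 279.0 ± 191 FPKM in CGG (limma adjusted p = 0.677). Of 9 meningeal markers 4 rose and 0 fell (voom 3 and 0), with a summed 126.0 to 258.5 FPKM in CGG-Cit libraries against 54.3 to 89.4 FPKM in CGG libraries. Of 8 suture and calvarial mesenchyme markers 2 rose and 0 fell (voom also 2 and 0), with a summed 716.1 to 1395 FPKM in CGG-Cit libraries against 1005 to 1228 FPKM in CGG libraries. Ctsk made up most of that sum, at 568.0, 1227 and 1009 FPKM in CGG-Cit libraries, against 872.6, 1068 and 1131 FPKM in CGG libraries. The sum therefore says little of the other genes. Of these, Prrx1 averaged 92.5 FPKM in CGG-Cit and 56.4 FPKM in CGG and passed, while Twist1, at 33.6 and 34.2 FPKM, did not. Of 10 osteoblast markers 6 fell and 0 rose (voom also 6 and 0) with limma, and Bglap, the osteocalcin gene, averaged 1237 ± 542 FPKM in CGG-Cit and 3006 ± 361 FPKM in CGG (SD, n = 3 each). The similarly abundant Col1a1 and Spp1 did not pass. Col1a1 averaged 4515 ± 986 FPKM in CGG-Cit and 7111 ± 1620 FPKM in CGG (limma adjusted p = 0.138). Spp1 averaged 1957 ± 985 FPKM in CGG-Cit and 2036 ± 238 FPKM in CGG (limma adjusted p = 0.754). Of 6 osteocyte markers 0 passed with limma, 4 had an unadjusted p under 0.05, all lower, and voom called 2 lower, with a summed 208.3 to 379.1 FPKM in CGG-Cit libraries against 466.7 to 779.3 FPKM in CGG libraries. Of 5 tested chondrocyte markers 0 passed with limma or voom and 0 had an unadjusted p under 0.05, with a summed 11.7 to 17.0 FPKM in CGG-Cit libraries against 7.73 to 17.6 FPKM in CGG libraries. No gene of these 6 lists was at 0 in every library. Macrophage markers passed as higher in 7 of 8 cases, and neutrophil and skeletal muscle markers passed as lower in 7 of 7 tested cases each.

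The antagonists were also set against the mean log2(FPKM + 1) of a marker list in the same library, a description chosen after the values were seen. Relative to the 12 fibroblast markers, Sfrp2 stood at 1.74, 1.85 and 1.86 in CGG-Cit libraries, against 0.14, 0.76 and 0.69 in CGG libraries on the log2 scale. Sfrp2 thus stood higher in all CGG-Cit libraries on this relative scale too, by 1.28 on average. The list is mixed, with log2 changes of its genes from -0.279 (Postn) to 1.76 (Dpt), neither of which passed. The scale therefore does not separate cell number from RNA per cell. Dkk3 on that scale stood at -0.89, -1.15 and -1.33 in CGG-Cit libraries, against -1.05, -1.28 and -0.97 in CGG libraries, a mean difference of -0.02 with overlapping groups. Sfrp1 gave a mean difference of -0.05 and Sfrp4 one of 0.46, and both overlapped as well. Relative to the 9 meningeal markers all 4 genes overlapped between the groups, with mean differences of 0.73 for Sfrp2, -0.09 for Sfrp4, -0.60 for Sfrp1 and -0.57 for Dkk3. Relative to the other 3 lists most of these genes did not overlap. Against the 8 suture and calvarial mesenchyme markers Sfrp2 (mean difference 1.83), Sfrp4 (1.01) and Dkk3 (0.53) lay above in all CGG-Cit libraries, while Sfrp1 (0.50) overlapped. Against the 5 tested chondrocyte markers Sfrp2 (2.11), Sfrp4 (1.29) and Dkk3 (0.81) lay above in all CGG-Cit libraries, and Sfrp1 (0.78) overlapped. Against the 10 osteoblast markers all 4 genes lay above in all CGG-Cit libraries, with mean differences of 1.65 to 2.98. Relative to the 10 osteoblast markers Wif1 stood at -2.71, -2.17 and -2.25 in CGG-Cit libraries, against -2.14, -2.19 and -2.17 in CGG libraries. The groups overlapped there, with a mean difference of -0.21, and CGG-Cit 1 alone lay apart. Against the other 4 lists Wif1 lay below in all CGG-Cit libraries, with mean differences of -1.91 for fibroblast, -2.46 for meningeal, -1.36 for suture and calvarial mesenchyme and -1.08 for chondrocyte markers.

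The rest of the Wnt pathway was followed in 6 lists of 86 symbols, 84 of them in the table and 66 tested; Axin1 and Znrf3 were not analysed here. Of the 66 tested genes 8 rose and 1 fell, or 13.6%, beside 17.5% of all genes tested that passed in either direction, with a median log2 change of 0.15. Among Wnt ligands 1 of 10 tested genes rose, and Wnt3, Wnt3a, Wnt8a and Wnt8b were listed at 0 in every library. Wnt2b had 1.77, 1.57 and 1.38 FPKM in CGG-Cit libraries, against 0.530, 0.361 and 0.630 FPKM in CGG libraries (log2 change 0.77 ± 0.16; limma adjusted p = 0.0254). The summed level of the 19 ligand genes was 30.5, 27.7 and 23.0 FPKM in CGG-Cit libraries, against 16.3, 26.2 and 23.2 FPKM in CGG libraries, and these ranges overlapped. The summed antagonists stood at 11.2, 15.9 and 20.4 times the summed ligands in CGG-Cit libraries, against 9.1, 6.98 and 6.3 times in CGG libraries. For these 8 genes all CGG-Cit ratios were above all CGG ratios. Without Sfrp2 the ratios were 3.15, 4.77 and 5.23 in CGG-Cit libraries, against 5.62, 3.31 and 3.7 in CGG libraries, and these overlapped. The sums also leave out Sost, a secreted inhibitor outside the 8 genes. Sost had 70.2, 124.5 and 124.4 FPKM in CGG-Cit libraries, against 143.1, 217.9 and 96.6 FPKM in CGG libraries. It stood above Sfrp2 in every CGG library, so the ratios do not describe Wnt antagonists as a whole.

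Among genes for Wnt release, R-spondins and glypicans, 2 of 8 rose. Wls, which carries Wnt proteins to the cell surface, averaged 25.7 ± 2.26 FPKM in CGG-Cit and 15.3 ± 1.04 FPKM in CGG (SD, n = 3 each; adjusted p = 0.0123 with limma), and the glypican gene Gpc6 averaged 13.6 ± 1.41 FPKM in CGG-Cit and 6.02 ± 1.16 FPKM in CGG (limma adjusted p = 0.0113). Among receptors 3 of 17 rose. Fzd1 had 26.3, 24.4 and 25.8 FPKM in CGG-Cit libraries, against 15.8, 11.1 and 10.3 FPKM in CGG libraries (log2 change 1.0 ± 0.159; limma adjusted p = 0.0155). Fzd2 averaged 24.9 ± 3.66 FPKM in CGG-Cit and 12.5 ± 3.17 FPKM in CGG (limma adjusted p = 0.0235). Lrp6, the co-receptor that Dkk1 and Dkk2 bind, averaged 23.6 ± 2.44 FPKM in CGG-Cit and 13.5 ± 4.38 FPKM in CGG (limma adjusted p = 0.0439), while Lrp5 averaged 17.2 ± 4.23 FPKM in CGG-Cit and 18.7 ± 1.81 FPKM in CGG (0.64).

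Downstream of the receptors the calls ran both ways. Ccnd1, the cyclin D1 gene, had 44.2, 42.0 and 32.3 FPKM in CGG-Cit libraries, against 16.1, 21.6 and 17.7 FPKM in CGG libraries (log2 change 1.05 ± 0.159; limma adjusted p = 0.0136). Lef1, a TCF/LEF factor that is also a beta-catenin target, had 3.25, 3.69 and 3.81 FPKM in CGG-Cit libraries, against 6.42, 4.57 and 6.50 FPKM in CGG libraries (log2 change -0.56 ± 0.154; limma adjusted p = 0.0498). Axin2, the target most used as a readout of canonical Wnt signalling, had 2.20, 2.26 and 1.85 FPKM in CGG-Cit libraries, against 2.07, 1.80 and 2.40 FPKM in CGG libraries. Its log2 change of 0.01 had a 95% interval of -0.335 to 0.35 (limma adjusted p = 0.976). Bcl9l, a beta-catenin coactivator, averaged 14.2 ± 1.53 FPKM in CGG-Cit and 9.90 ± 0.689 FPKM in CGG (limma adjusted p = 0.0339), and Ctnnb1, which encodes beta-catenin, averaged 200.6 ± 23.9 FPKM in CGG-Cit and 207.0 ± 20.3 FPKM in CGG (0.818). In all, 1 of 15 effectors rose and 1 fell, and 1 of 11 tested target genes rose and 1 fell, Lef1 being in both lists. Of 10 tested other inhibitors 0 passed with limma or voom and 2 had an unadjusted p under 0.05. Sost, the osteocyte inhibitor sclerostin, had 70.2, 124.5 and 124.4 FPKM in CGG-Cit libraries, against 143.1, 217.9 and 96.6 FPKM in CGG libraries (limma adjusted p = 0.353), and Notum lay under the filter on low values.

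None of these calls held in all 6 fits that left out a library. Without CGG 3 none of the 9 passed (adjusted p = 0.0702 for Wnt2b, 0.0547 for Wls, 0.0524 for Gpc6, 0.0578 for Fzd1, 0.0802 for Fzd2, 0.136 for Lrp6, 0.107 for Bcl9l, 0.0597 for Ccnd1 and 0.15 for Lef1), and without CGG-Cit 2 Gpc6 did (0.0488) while the others had adjusted p of 0.05 to 0.128. Without CGG-Cit 1 the calls of Wnt2b (0.0682), Fzd2 (0.0657), Lrp6 (0.0787), Bcl9l (0.0514) and Lef1 (0.119) ended. Without CGG 2 those of Wnt2b (0.0657), Fzd1 (0.05), Fzd2 (0.0688), Lrp6 (0.115) and Bcl9l (0.0761) ended. Without CGG 1 those of Wnt2b (0.0624), Bcl9l (0.0754) and Lef1 (0.138) ended, and without CGG-Cit 3 those of Lrp6 (0.0913), Bcl9l (0.0654) and Lef1 (0.0727). Lef1 also did not pass under any of the 4 other scalings (0.0502 to 0.15) or without the filter (0.088), and Lrp6 did not pass under quantile (0.0513) or equal-total (0.0531) scaling or without the filter (0.0706).

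**Figure D5:**
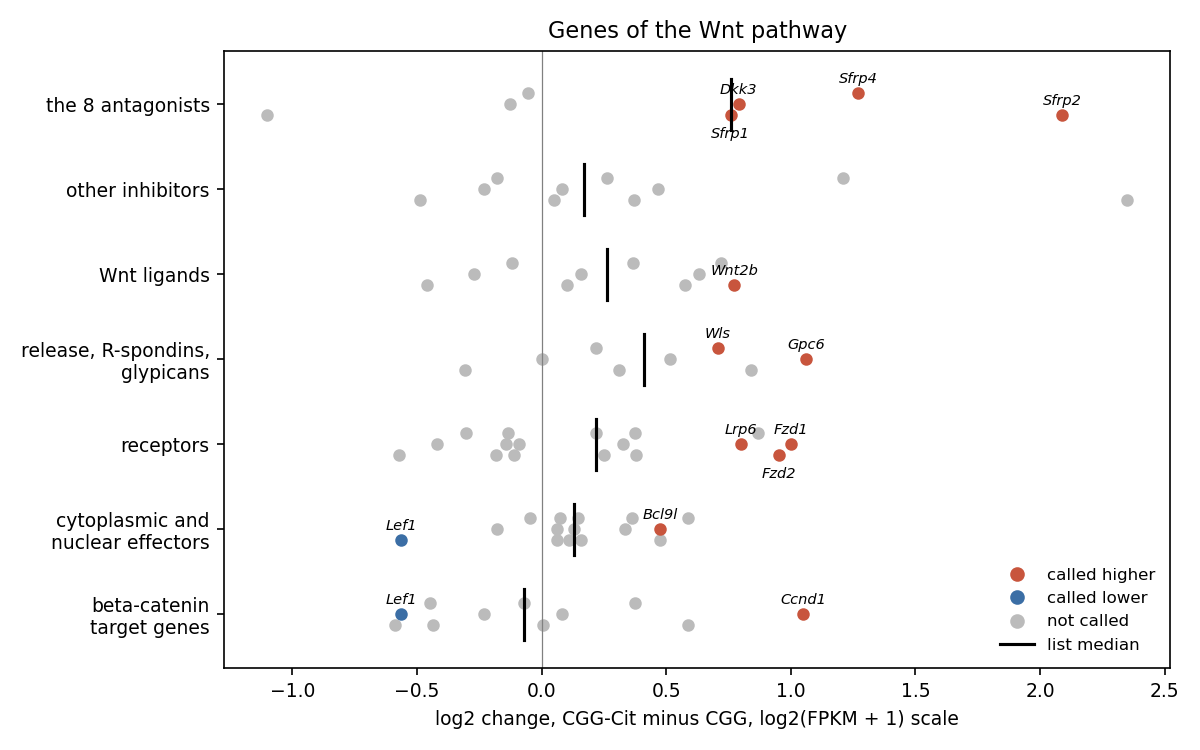
Log2 change of FPKM + 1, CGG-Cit minus CGG (x axis), of the tested antagonists and of the tested genes of 6 other Wnt lists (rows), with each gene as a point, genes that passed in colour and named, and the list median as a bar. The antagonists' median is 0.76, and those of the other lists run from -0.07 to 0.41.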

How the data were processed

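RNA from week 4 calvarial defects was sequenced in read pairs, per the labels' protocols. The authors deposited 1 table of FPKM values, with gene lengths. The submitters' processing notes name, without roles, DESeq2 1.20.0, featureCounts 1.5.0-p3, HISAT2 2.0.5 and mRatBN7.2. The table's coordinates reach 282724300 on chromosome 1, beyond the last gene end of 270492571 there in GRCr8, so they are printed as listed, with no build. FPKM times gene length gave whole reads in 100% of values above 0 (within 0.01 reads).

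Groups and replicate numbers came from the titles. Genes were tested with limma 3.58.1 (lmFit, eBayes with trend; R 4.3.3) on log2(FPKM + 1), with a mean of at least 0.5 FPKM and no block, and checked on simulated data. Tables were made with pandas 2.3.3. Of 168 list symbols 165 matched; Axin1, Znrf3 and Myh4 were not analysed here. The 8 genes, the lists and the rules were chosen with earlier results of these data known. Besides the 8 genes, named genes were the Wnt list members that passed, 7 fixed Wnt genes, up to 3 of the most abundant of each marker list and the nearest profiles. The 17 alternatives were 2 other pseudocounts, 2 other filters, 4 other scalings, robust variance, the replicate number as a block, voom on recovered reads and each library left out.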

Additional observations from a re-analysis of the deposited data

How the results depend on the processing

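Sfrp2 kept its direction and passed in all 17 alternatives, and Dkk3, Sfrp1 and Sfrp4 kept their direction in all 17 while passing in 16, 10 and 10. The count of antagonists called higher was 2 without the filter on low values (22222 genes tested) and 2 with the replicate block, against 4, and 1 to 3 when a library was left out. The count called lower was 0 to 1 when a library was left out. For the other Wnt genes the count called higher was 0 to 8 when a library was left out, against 8, and it was 12 under TPM scaling and 6 with the replicate block, where Wnt2b (adjusted p = 0.0684), Lrp6 (0.0956) and Bcl9l (0.0918) did not pass. The count called lower was 1, and was 0 without the filter, with median-of-ratios, TPM, quantile and equal-total scaling, with robust variance and with the replicate block, and 0 to 1 when a library was left out. The cause of these losses was not tested. Same-numbered libraries did not deviate together (correlations of -0.0956, 0.00165 and -0.0779 across genes). No label says whether the numbers pair the libraries, and correlations over so few libraries cannot exclude a pairing. Under the replicate block Sfrp2 (adjusted p = 0.0196) and Dkk3 (0.0309) passed, Sfrp4 (0.0878) and Sfrp1 (0.05) did not, and the calls over all genes were 612 higher and 1055 lower. Over all genes 1237 were called higher and 1561 lower, 44.2% of the calls being higher. Under TPM scaling, which moved the median log2 change of all genes to 0.16, the calls were 2203 and 948, 69.9% higher, and the log2 changes, to be read against that median, were 2.28 for Sfrp2, 1.47 for Sfrp4, 0.98 for Dkk3, 0.95 for Sfrp1 and -0.95 for Wif1. Leaving out a library gave 122 to 1312 higher and 190 to 1622 lower calls. Frzb and Dkk2, which did not pass, changed sign in 4 and 1 of 16 alternatives. Without the filter, Dkk1 had a log2 change of 0.02 (adjusted p = 0.858), at 0 to 2 reads per library.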

Other observations

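Some genes outside the naming rule, chosen after their values were seen, did not pass. Shisa3, of a family of proteins known in frogs for holding Frizzled and Fgf receptors in the endoplasmic reticulum, had 55.4, 61.0 and 41.0 FPKM in CGG-Cit libraries, against 43.5, 2.65 and 5.84 FPKM in CGG libraries. CGG 1 lay within the CGG-Cit range, and the log2 change of 2.35 ± 0.853 (SE) did not pass (limma adjusted p = 0.103). Sfrp5, the frizzled-related gene nearest in sequence to Sfrp1 and Sfrp2, had 2.80, 22.2 and 16.8 FPKM in CGG-Cit libraries, against 8.38, 6.24 and 0.859 FPKM in CGG libraries. Here CGG-Cit 1 lay within the CGG range, and the log2 change of 1.21 had a 95% interval of -0.815 to 3.24 (limma adjusted p = 0.349). Kremen1, a Dickkopf receptor, had 14.4, 14.5 and 16.8 FPKM in CGG-Cit libraries, against 9.30, 13.2 and 9.94 FPKM in CGG libraries, and did not pass (limma adjusted p = 0.073) although the groups did not overlap.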
